A study of Mus musculus with 12 samples.

Results

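This account follows 29 genes of fatty acid oxidation and ketone body metabolism, out of 55450 genes in the deposited tables, through 4 groups of primary mouse hepatocytes with 3 RNA-Seq libraries each. The genes were taken by symbol from a fixed list that covers entry of fatty acids into mitochondria, the mitochondrial and peroxisomal oxidation steps, omega-hydroxylation, the ketone body enzyme Bdh1 and the fasting genes Pdk4, Fgf21 and Vnn1. All 29 passed the filter on low counts in every comparison. KO hepatocytes had the genotype Cebpa{delta}Alb, in which Cre recombinase driven by the albumin promoter deletes Cebpa, and WT hepatocytes had floxed Cebpa alleles (Cebpafl/fl). OE hepatocytes were given an adenovirus that expresses mouse Cebpa (Ad-m-Cebpa), and GFP hepatocytes an adenovirus that expresses green fluorescent protein (Ad-GFP). For its own assays after CEBPA or GFP adenovirus, the paper names wild-type primary hepatocytes. Its main text does not say whether the sequenced cells were the same. The study's methods name male mice. The labels give no age or time in culture and number the libraries as biological replicates without naming separate mice or cultures, so p-values measure the spread between these libraries, which may be technical.

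Fatty acids are activated to acyl-CoA, carried into mitochondria as carnitine esters and shortened by repeated rounds of dehydrogenation, hydration, a further dehydrogenation and thiolysis. Peroxisomes shorten very long chains, and cytochrome P450 enzymes of the CYP4A family oxidize the far (omega) end of the chain. In fasting liver the acetyl-CoA formed is turned into ketone bodies, and the nuclear receptor PPARA drives many genes of these steps. CEBPA, a basic leucine zipper factor enriched in liver, binds many promoters of hepatocyte metabolism.

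Cebpa itself separated the groups as labelled. KO libraries held 0.963, 0.257 and 0.164 CPM of Cebpa, against 309, 229 and 290.3 CPM in WT. OE libraries held 13292, 13652 and 14079 CPM, against 48.0, 50.6 and 54.3 CPM in GFP. CPM here is counts per 1000000 after TMM scaling within each experiment, and TPM is the length-scaled value used wherever different genes or experiments are set side by side. Total counts ran from 20368564 to 23304230 in KO, 20966339 to 23261800 in WT, 20160081 to 23193817 in OE and 20467466 to 22132226 in GFP. Summed TPM of 9 hepatocyte markers, among them albumin and transthyretin, was 103247 to 113678 in KO and 91997 to 96794 in WT, but 13619 to 13994 in OE and 26703 to 27392 in GFP. The virus-treated cultures held far less hepatocyte marker RNA than the KO and WT preparations, and in such bulk samples fewer hepatocytes and less RNA per hepatocyte cannot be told apart. Of 10 lymphocyte and neutrophil markers the sum was 3071 to 3555 TPM in OE and 0.11 to 0.27 TPM in GFP, and the 2 of them abundant enough to be tested, S100a8 and S100a9, were both higher in OE. Bile duct markers summed to 375 to 499 TPM in KO and 18.6 to 26.3 TPM in WT, where Spp1 and Sox9 were called higher in KO. The part of either set in the results on the 29 genes was not tested.

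The 29 genes together made up 4776 to 5123 TPM in KO, 4997 to 5548 TPM in WT, 1504 to 1533 TPM in OE and 1779 to 1823 TPM in GFP. In KO hepatocytes the most abundant were the mitochondrial thiolase Acaa2 (629 ± 64.9 TPM, SD, n = 3), the omega-hydroxylase Cyp4a10 (495 ± 134 TPM) and the peroxisomal thiolase Acaa1b (449 ± 22.3 TPM). WT hepatocytes had Acaa1b (698 ± 122 TPM), Acaa2 (680.1 ± 9.09 TPM) and Acsl1, which activates long-chain fatty acids (514 ± 44.8 TPM) in the first places, and the SDs of Acaa1b and Acaa2 overlapped there. The order was different in culture with virus. In OE hepatocytes the long-chain dehydrogenase Acadl led (224 ± 4.53 TPM), followed by Acsl1 (125 ± 2.38 TPM) and Acaa2 (107 ± 1.76 TPM). In GFP hepatocytes Etfdh, which passes electrons from the dehydrogenases to ubiquinone (162 ± 3.53 TPM), the isomerase Eci2 (153 ± 10.8 TPM) and the medium-chain dehydrogenase Acadm (152 ± 1.40 TPM) were highest, and the SD of Eci2 overlapped those of the other two. The plot of all levels shows that KO and WT libraries lie close together for most genes, while OE and GFP libraries are each tightly grouped and lie lower for most genes.

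**Figure D1:**
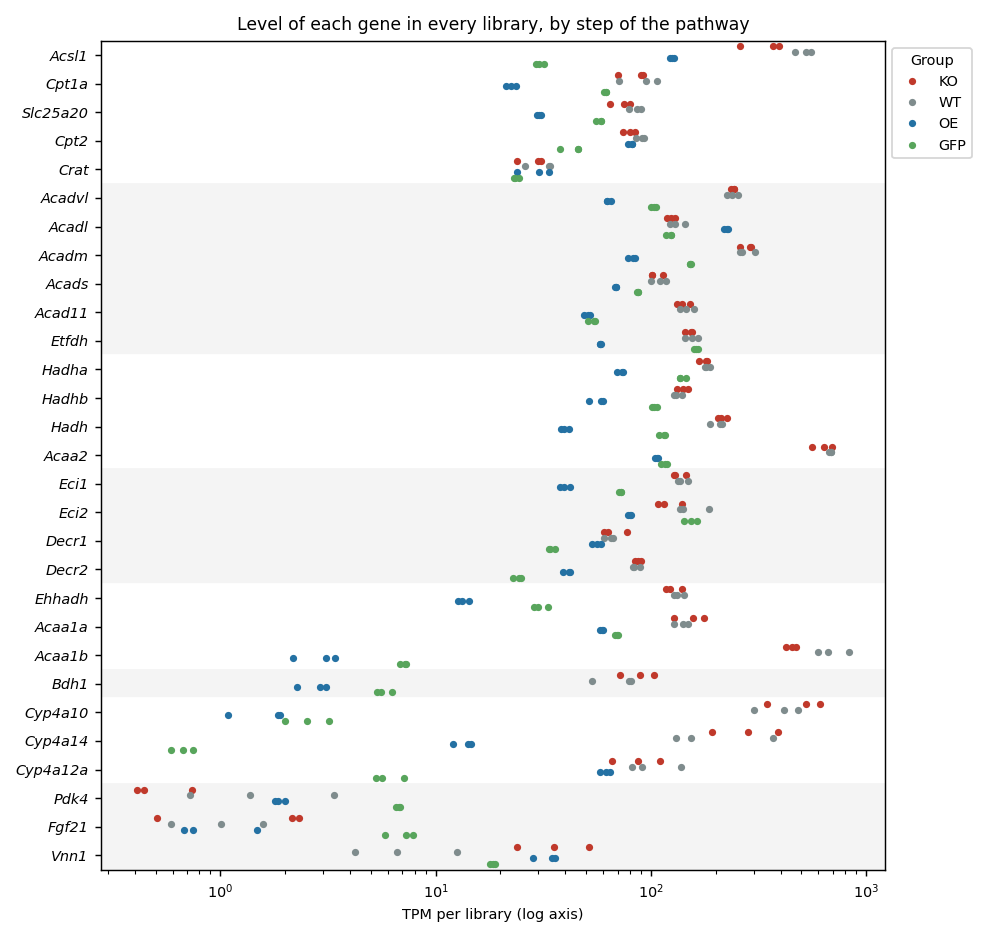
TPM (log axis) of the 29 genes, 1 row a gene with rows shaded by step of the pathway, and 1 point for each of the 3 libraries of KO, WT, OE and GFP. Acaa1b and Cyp4a10 stand at over 300 TPM in KO and WT and below 10 TPM in OE and GFP, whereas Acadl stands above 100 TPM in every group.

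KO hepatocytes were compared with WT hepatocytes to ask which of these genes depend on CEBPA. None of the 29 passed an adjusted p of 0.05 (edgeR's quasi-likelihood test, Benjamini-Hochberg adjusted), where 1.71% of the 11846 genes tested were called, 0.692% higher and 1.02% lower. At an unadjusted p under 0.05 the count was 4, and the share of all genes at that threshold is not given here. DESeq2 called the same 4 after adjustment, beside 623 of 11846 genes, and limma on log2(TPM + 1) called 0, beside 112 of 10845. The median log2 fold change was -0.015 over the 29 genes and 0.0074 over all genes tested. KO and WT libraries did not overlap for 2 higher genes (Vnn1 and Hadhb) and 3 lower genes (Acsl1, Cpt2 and Acaa1b), beside backgrounds of 9.66% of genes higher and 10.4% lower without overlap.

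The enzymes of the mitochondrial cycle were nearly level. Acadvl, the very-long-chain dehydrogenase, had 348, 350.1 and 337 CPM in KO, against 327, 324 and 348 CPM in WT. Hadhb, the thiolase subunit of the mitochondrial trifunctional protein, had 189, 186 and 197 CPM in KO, against 166, 183 and 181 CPM in WT, a log2 fold change of 0.11 ± 0.093 (SE). KO and WT overlapped for Acadvl and lay apart by a few CPM for Hadhb. Eci2, which shifts double bonds so that unsaturated chains can be oxidized, had 115, 96.7 and 83.9 CPM in KO, against 103, 105 and 140.0 CPM in WT. Over the 22 enzymes from Acsl1 to the peroxisomal thiolases, log2 fold changes ran from -0.59 to 0.18, and the 95% intervals of 16 stayed within 0.5 of 0 in either direction. All 22 intervals lay within 1 of 0, so a 2-fold change in either direction was outside the interval of each. The bound furthest from 0 was -0.97, for Acsl1, and the intervals are approximate, being derived from the F statistic. The intervals of 4 of the 29 genes did not include 0, the same 4 that had an unadjusted p under 0.05.

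Those 4 genes were Vnn1, Pdk4, Acaa1b and Acsl1. Vnn1 encodes vanin 1, a pantetheinase and PPARA target. It had 58.6, 86.5 and 38.3 CPM in KO, against 6.78, 11.3 and 20.2 CPM in WT, with every KO library above every WT library. The log2 fold change was 2.26 ± 0.44 (95% interval 1.22 to 3.30, edgeR adjusted p = 0.0652). Without KO library 3, the KO library with the lowest level, edgeR gave Vnn1 an adjusted p of 0.0349, and without any filter on low counts 0.011, within a range of 2.26e-06 to 0.254 over all alternatives. Summed TPM of 12 macrophage markers was 39.6, 42.7 and 14.2 TPM in KO libraries 1, 2 and 3, against 3.58, 5.76 and 24 TPM in WT. The highest Vnn1 and the highest macrophage sum in KO were in library 2, and the highest of each in WT were in library 3. WT library 3 had a higher macrophage sum than KO library 3 but less Vnn1. Of the 10 macrophage markers tested, 0 were called, but all 10 had positive log2 fold changes in KO against WT, with a median of 1.62. By edgeR's test 3 of them had an unadjusted p under 0.05. The part of macrophages in the Vnn1 difference was not tested.

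Pdk4 encodes a kinase that shuts off pyruvate dehydrogenase when fat is burned. It stood at 1.01, 0.925 and 1.81 CPM in KO, against 8.06, 3.48 and 1.71 CPM in WT, so KO library 3 lay above WT library 3. Its log2 fold change of -1.80 ± 0.59 was not called (edgeR adjusted p = 0.236) and came to -1.05 without WT library 1. Acaa1b had 511, 497 and 511 CPM in KO, against 699.6, 939.9 and 641 CPM in WT (log2 fold change -0.59 ± 0.16, edgeR adjusted p = 0.155). Acsl1 had 1011, 731 and 1055 CPM in KO, against 1225, 1538 and 1367 CPM in WT (log2 fold change -0.56 ± 0.17, edgeR adjusted p = 0.211). Neither gene had overlapping libraries. DESeq2 called all 4 genes in the directions given, beside 623 of 11846 genes. A fit of all 12 libraries did so too, beside 1205 of 15326 genes, and it understates the spread in KO and WT. Over all alternatives the adjusted p ran over 0.0311 to 0.602 for Pdk4, 0.0175 to 0.359 for Acaa1b and 0.0255 to 0.519 for Acsl1.

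Further genes with wide intervals were the omega-hydroxylases, Bdh1 and Fgf21. Cyp4a10 had 885, 788 and 493 CPM in KO, against 579, 442 and 669 CPM in WT. Bdh1, which interconverts acetoacetate and beta-hydroxybutyrate, had 88.9, 118 and 127 CPM in KO, against 63.2, 101 and 97.5 CPM in WT. Libraries of both genes overlapped between the groups. Cyp4a14 spanned 323 to 697 CPM in KO and 228 to 611 CPM in WT, with a 95% interval of the log2 fold change of -0.57 to 1.48. Fgf21, the fasting hormone, gave 26, 27 and 7 counts in KO and 19, 8 and 13 counts in WT, and its 95% interval of -0.76 to 2.17 included both 0 and a 2-fold rise at this depth.

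**Figure D2:**
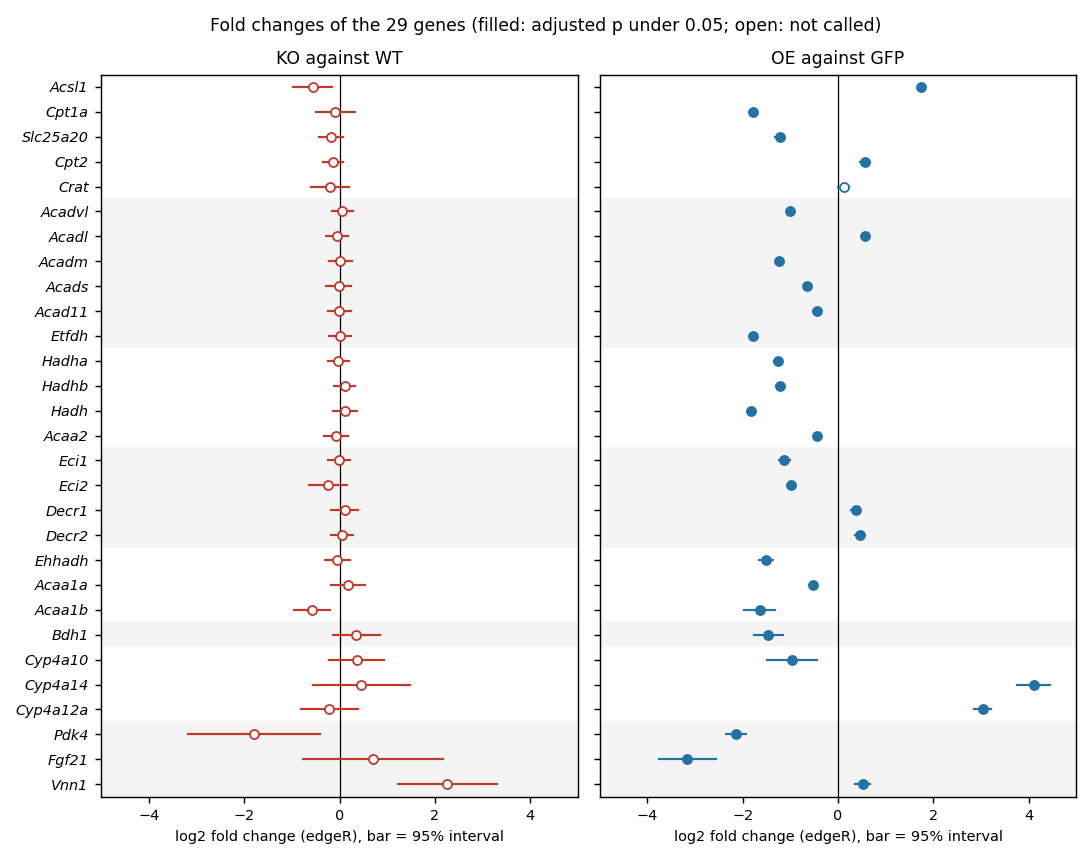
Log2 fold change of each of the 29 genes with its 95% interval, in KO against WT and in OE against GFP, filled where the edgeR adjusted p was under 0.05. All 29 points are open on the KO side, and 28 of 29 are filled on the OE side, with Cyp4a14 at 4.10 and Fgf21 at -3.16 as the extremes.

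OE hepatocytes were compared with GFP hepatocytes to ask how the same genes respond to added Cebpa. Of the 29 genes, 8 were increased and 20 decreased by edgeR's quasi-likelihood test, and Crat, the carnitine acetyltransferase, was not called (log2 fold change 0.11 ± 0.056). With DESeq2-type size factors, library totals, no filter, a stricter filter or without OE library 3, edgeR called Crat higher (adjusted p 0.000524 to 0.0388). Across all 14889 genes tested, 86.6% were called, 43.9% higher and 42.7% lower, so that a call alone does not set these genes apart. Above 2-fold, 3 genes were higher and 14 lower, beside 42% of all genes past 2-fold in either direction. The median log2 fold change was -0.99 over the 29 genes and 0.0053 over all genes. The 9 hepatocyte markers had a median of -0.99 in the same libraries, 2 being called higher and 7 lower, and the part of hepatocyte content in the values of the 29 genes was not tested. OE and GFP libraries did not overlap for 8 higher and 20 lower genes, beside backgrounds of 44.1% and 42.9%. With limma on log2(TPM + 1), where the median of all genes was 0.27, the 29 genes gave 8 higher and 18 lower calls, Acad11 and Cyp4a10 being lost, and the share of higher calls among all calls was 63.4% in place of 50.7%.

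The carnitine shuttle moved in opposite directions at successive steps. Acsl1 had 241, 251 and 240.2 CPM in OE, against 75.9, 71.1 and 71.1 CPM in GFP, and was 3.36-fold higher (log2 fold change 1.75 ± 0.034, edgeR adjusted p = 2.78e-15). Cpt1a, which forms acylcarnitine at the outer membrane and limits the rate of entry, had 50.8, 51.6 and 47.1 CPM in OE, against 174, 169 and 173 CPM in GFP, and was 3.44-fold lower. The carrier Slc25a20, which moves acylcarnitine across the inner membrane, was 2.35-fold lower. Cpt2, which turns acylcarnitine back into acyl-CoA inside, had 87.4, 86.7 and 89.5 CPM in OE, against 54.2, 63.1 and 60.5 CPM in GFP, and was 1.48-fold higher. Acsl1 and Cpt2, at the ends of the route, were raised and Cpt1a and Slc25a20, between them, were lowered. The ratio of Cpt1a to Cpt2 in TPM was 0.279 ± 0.017 in OE and 1.44 ± 0.182 in GFP (SD, n = 3), against 1.05 ± 0.096 in KO and 1.01 ± 0.159 in WT. Summed over its 5 genes, the step held 282 to 298 TPM in OE and 215 to 218 TPM in GFP.

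Among the 6 genes of the first oxidation step, only Acadl was increased. It had 209.5, 213 and 204 CPM in OE, against 139, 146 and 139.6 CPM in GFP (log2 fold change 0.56 ± 0.031). The dehydrogenases for the other chain lengths fell: Acadvl by 1.00, Acadm by 1.24, the short-chain Acads by 0.65 and Acad11 by 0.45 on the log2 scale. Acadl was 2.74 ± 0.0516 times Acadm in TPM in OE and 0.802 ± 0.0187 times in GFP. Etfdh had 69.8, 69.6 and 68.3 CPM in OE, against 237, 239.6 and 243 CPM in GFP, and was 3.46-fold lower (log2 fold change -1.79 ± 0.028, edgeR adjusted p = 3.89e-16). The step as a whole held 540.3 to 549.6 TPM in OE and 668 to 686 TPM in GFP. Exons of Acadvl share 1151 of their 2686 annotated bases with Dvl2 on the opposite strand, and whether counting used strand is not given in the sources used here.

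All 4 genes of the later mitochondrial steps were decreased. Hadh, the dehydrogenase for medium and short hydroxyacyl chains, had 33.8, 34.7 and 36.2 CPM in OE, against 121, 127 and 125 CPM in GFP, and was 3.56-fold lower (log2 fold change -1.83 ± 0.038, edgeR adjusted p = 5.47e-15). Hadha and Hadhb encode the 2 subunits of the trifunctional protein and moved alike. Hadha had 105, 96.4 and 97.3 CPM in OE, against 241, 237 and 244 CPM in GFP, and Hadhb 59.9, 51.4 and 54.3 CPM in OE, against 126, 126 and 132 CPM in GFP. Their log2 fold changes were -1.27 ± 0.035 and -1.21 ± 0.047, and the ratio of Hadha to Hadhb in TPM stayed between 1.19 and 1.42 in each of the 12 libraries. Acaa2 fell by 0.43 on the log2 scale. The step held 268 to 281 TPM in OE and 470.0 to 473 TPM in GFP.

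Hadha (minus strand, chr5:30118304-30155162) and Hadhb (plus strand, chr5:30155248-30184593) stand head to head on mm10. The 85 bases between their annotated ends, chr5:30155163-30155247 (plus strand, from the RefSeq promoter table on GRCm38.p6), are shown because the genes share this stretch and both fell in OE. No part is in capitals, since the stretch held 0 matches to the motifs searched, and 69.4% of its bases were G or C.
Hadha-Hadhb: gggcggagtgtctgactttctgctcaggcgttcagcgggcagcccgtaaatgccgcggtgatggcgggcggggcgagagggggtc

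The genes for unsaturated chains divided by reaction. Both isomerases fell. Eci2 had 53.6, 52.9 and 53.5 CPM in OE, against 103, 111 and 104 CPM in GFP (log2 fold change -0.99 ± 0.038, edgeR adjusted p = 4.61e-12), and Eci1 was 2.19-fold lower. Both dienoyl-CoA reductases rose: the mitochondrial Decr1 was 1.30-fold and the peroxisomal Decr2 1.38-fold higher in OE. These rises were small beside the 42% of genes that changed over 2-fold.

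The 3 genes of the peroxisomal bifunctional enzyme and thiolases were all decreased, whereas the peroxisomal reductase Decr2 rose. Ehhadh, the bifunctional hydratase and dehydrogenase of peroxisomes, had 21.9, 19.5 and 20.1 CPM in OE, against 57.6, 63.3 and 54.6 CPM in GFP, and was 2.86-fold lower (log2 fold change -1.51 ± 0.064, edgeR adjusted p = 1.45e-11). Of the thiolase pair, Acaa1b was at 1.82, 2.65 and 2.35 CPM in OE, against 7.45, 7.14 and 6.68 CPM in GFP, and Acaa1a was 1.44-fold lower. Acaa1a (chr9:119339676-119350299, plus strand) and Acaa1b (chr9:119148023-119157093, minus strand) lie on the same chromosome and share 96.5% of coding bases, so RSEM had to divide reads between them and the level of each is uncertain. The balance of the pair still differed widely between experiments: Acaa1b was 2.98 ± 0.594 times Acaa1a in TPM in KO and 5.03 ± 0.704 times in WT, but 0.049 ± 0.0114 times in OE and 0.103 ± 0.0027 times in GFP. Bdh1 had 2.35, 2.16 and 2.68 CPM in OE, against 6.46, 7.05 and 6.26 CPM in GFP, and was 2.75-fold lower.

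The omega-hydroxylases held the largest rises of the 29 genes. Cyp4a14 had 18, 14.4 and 16.9 CPM in OE, against 0.944, 1.17 and 0.719 CPM in GFP, from 436, 320 and 360 counts in OE and 19, 25 and 14 in GFP, and was 17.2-fold higher (log2 fold change 4.10 ± 0.16). Cyp4a12a had 79.3, 71.3 and 74.2 CPM in OE, against 8.65, 8.04 and 10.9 CPM in GFP, and was 8.18-fold higher (log2 fold change 3.03 ± 0.081, edgeR adjusted p = 8e-14). Cyp4a10 went the other way, with 2.02, 1.98 and 1.13 CPM in OE, against 2.63, 3.29 and 4.21 CPM in GFP (log2 fold change -0.97 ± 0.24, edgeR adjusted p = 0.00173), and was not called by limma on TPM. Summed TPM of the 3 genes was 72.0 to 80.3 in OE and 8.20 to 11.0 in GFP, but 649 to 980.0 in KO and 569.7 to 941 in WT. In TPM, Cyp4a14 in OE (13.6 ± 1.36) was below every KO and WT library.

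These genes sit in a cluster on chromosome 4: Cyp4a12a at chr4:115299046-115332815 (plus strand), Cyp4a14 at chr4:115486200-115496142 (minus strand) and Cyp4a10 at chr4:115518264-115533649 (plus strand). Close copies lie on the same chromosome. Cyp4a12b shares 98.6% of coding bases with Cyp4a12a and was also higher in OE (log2 fold change 3.79 ± 0.10). Cyp4a10 shares 96.6% with Cyp4a31, which was lower (log2 fold change -4.34 ± 0.60), and 97.2% with Cyp4a32, which was higher (1.32 ± 0.29). Values within each group of copies are uncertain for this reason, whereas Cyp4a10 and Cyp4a14 share 76.4% of coding bases and are less alike.

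Fgf21 and Pdk4, both induced by fasting, were decreased and Vnn1 was increased. Fgf21 had 0.289, 0.314 and 0.611 CPM in OE, against 3.83, 3.01 and 4.06 CPM in GFP, from 7, 7 and 13 counts in OE and 77, 64 and 79 in GFP (log2 fold change -3.16 ± 0.28). Pdk4 had 3.63, 3.37 and 3.20 CPM in OE, against 15.4, 14.6 and 15.3 CPM in GFP, and was 4.42-fold lower (log2 fold change -2.15 ± 0.10, edgeR adjusted p = 2.72e-11). Vnn1 had 42.3, 33.5 and 40.3 CPM in OE, against 27.3, 27.2 and 26.6 CPM in GFP (log2 fold change 0.52 ± 0.075), a call that a fit of all 12 libraries did not keep. OE and GFP libraries did not overlap for any of the 3 genes. Summed macrophage markers were at 189 to 209 TPM in OE and 174 to 198 TPM in GFP. Only Cd68 and Csf1r of 12 genes were abundant enough to be tested, and Cd68 was lower and Csf1r higher in OE. In GFP, 4 of the 12 were at 0 in every library. Against WT, Cd68 was higher in GFP (log2 fold change 8.08). Clec4f, Cd5l and Csf1r were lower there (-9.54, -5.12 and -3.68), so the sum does not stand for all 12 markers.

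**Figure D3:**
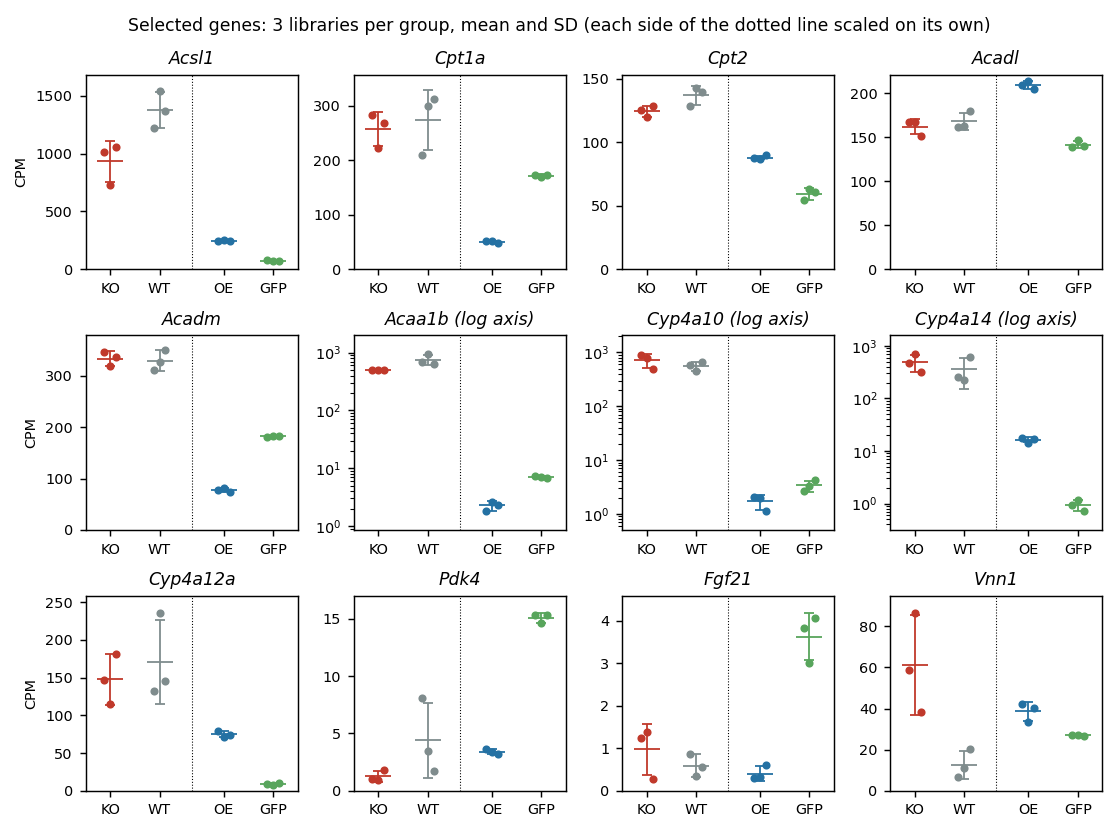
CPM of 12 of the genes in the 3 libraries of KO, WT, OE and GFP, with the mean and SD (Acaa1b, Cyp4a10 and Cyp4a14 on a log axis). KO and WT share a scaling that OE and GFP do not, so levels are to be read within each side of the dotted line. Acsl1, Cpt2, Acadl, Cyp4a14, Cyp4a12a and Vnn1 are higher in OE than in GFP in every library, and Cpt1a, Acadm, Acaa1b, Cyp4a10, Pdk4 and Fgf21 are lower.

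Beside the 29 genes, 82 further genes of the same pathways were counted. In KO against WT 78 were tested, 1 was higher and 3 lower (5.13% called, against 1.71% of all genes), with a median log2 fold change of -0.12. Pecr, a peroxisomal enoyl-CoA reductase, had 56.6, 61.2 and 68.4 CPM in KO, against 155, 148 and 129.6 CPM in WT (log2 fold change -1.22 ± 0.12, edgeR adjusted p = 0.00557). Hsd17b10, a mitochondrial hydroxyacyl-CoA dehydrogenase, had a log2 fold change of -1.01 ± 0.12, and Aldh3a2, the fatty aldehyde dehydrogenase that follows omega-hydroxylation, -1.98 ± 0.25 with 55.4, 29.5 and 55.8 CPM in KO, against 177, 206 and 171 CPM in WT. Slc16a6, a transporter that exports ketone bodies in zebrafish liver, was 2.19-fold higher in KO (edgeR adjusted p = 0.0339). KO and WT libraries of these 4 genes did not overlap. The receptor gene Ppara was at 69.0, 51.8 and 112 CPM in KO, against 71.8, 131 and 82.4 CPM in WT (95% interval -1.07 to 0.48). Cpt1b, the muscle form of the entry enzyme, had an interval of -1.43 to 0.22, and neither gene was called.

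In OE against GFP 80 of the 82 genes were tested, 26 higher and 42 lower (85% called, beside 86.6% of all genes, 43.9% higher and 42.7% lower), with a median log2 fold change of -0.28. By list, the ketone body genes had 2 higher and 4 lower of 7 tested, mitochondrial oxidation and entry 7 higher and 12 lower of 24, peroxisomal and alpha-oxidation 6 higher and 7 lower of 16, omega-hydroxylation 2 higher and 5 lower of 8, regulators 8 higher and 6 lower of 15 and further PPARA targets 1 higher and 8 lower of 10. Creb3l3, a fasting-activated transcription factor of the endoplasmic reticulum, was 13.1-fold lower, and the mitochondrial carrier Ucp2 7.41-fold lower. Cpt1b fell by 4.95 on the log2 scale. Rises included the deacetylase gene Sirt1, with 319, 314 and 339.8 CPM in OE, against 47.6, 47.3 and 47.0 CPM in GFP (6.85-fold), and Ppara with 48.2, 49.9 and 53.7 CPM in OE, against 27.4, 30.3 and 29.3 CPM in GFP (1.74-fold).

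The effect of added Cebpa was set against that of its loss by testing the difference between them in a fit of all 12 libraries. The difference was called for 26 of the 29 genes, 6 higher and 20 lower (3 and 15 over 2-fold), beside 54.1% of 15326 genes called, 25.9% higher, 28.1% lower and 31.3% over 2-fold. Crat, Decr1 and Pdk4 were not called. The 6 with a more positive effect in OE against GFP than in KO against WT were Acsl1, Cpt2, Acadl, Decr2, Cyp4a14 and Cyp4a12a. Acsl1, with log2 fold changes of 1.75 in OE against GFP and -0.56 in KO against WT, differed by 2.33 ± 0.20 (edgeR adjusted p = 1.36e-06). Vnn1 had positive values in both, 0.52 in OE against GFP and 2.26 in KO against WT. Pdk4 and Acaa1b had negative values in both. A shared sign was not particular to them. Decr1 and Decr2 were also positive in both, and Cpt1a, Slc25a20, Acads, Acad11, Hadha, Acaa2, Eci1, Eci2 and Ehhadh negative in both. None of these genes was called in KO against WT. The fit of all 12 libraries holds a single dispersion per gene. The biological coefficient of variation was 20.4% in KO and WT and 4.04% in OE and GFP, so that fit understates the spread in KO and WT.

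GFP hepatocytes were also compared with WT hepatocytes, the controls of the 2 experiments, because the levels of these genes differed so much between them. Virus, genotype label and preparation differ together here and cannot be told apart. With TMM scaling 26 of the 29 genes were lower in GFP, each over 2-fold, and Fgf21 was higher, beside 83.3% of 13760 genes called, 38.4% lower, 45% higher and 50.3% over 2-fold. Libraries not overlapping made up 46.4% of genes higher and 39% lower. The median log2 fold change was -2.34 over the 29 genes and 0.13 over all genes. With library totals in place of TMM the median of all genes was 1.36 and the share of higher calls among all calls 83.4% in place of 53.9%, and with limma on log2(TPM + 1) these were 1.33 and 85.8%. The 29 genes then gave 3 higher and 24 lower calls with library totals and 3 higher and 23 lower with limma, the added higher calls being Pdk4 and Vnn1. Etfdh and Eci2 were not called under either, and their limma values were slightly positive. The size of the falls also depended on the fit, and not every gene stayed past 2-fold. Over all alternatives the weakest log2 fold change was -0.32 for Acads, -0.35 for Hadhb, -0.39 for Hadha and -0.86 for Acadm. It was -6.42 for Acaa1b and -6.80 for Cyp4a10.

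On the TMM scale the falls were deepest in Cyp4a14, Cyp4a10 and Acaa1b. In TPM, Cyp4a14 was at 0.67 ± 0.08 in GFP and 217 ± 131 in WT, Cyp4a10 at 2.57 ± 0.612 in GFP and 400.2 ± 91.9 in WT, and Acaa1b at 7.11 ± 0.248 in GFP and 698 ± 122 in WT (SD, n = 3 each). Their log2 fold changes were -9.90, -8.71 and -8.08. Acsl1, Cyp4a12a and Bdh1 followed with -5.58, -5.55 and -5.06. Of the mitochondrial enzymes, Acadl was at 122 ± 3.57 TPM in GFP and 132 ± 10.5 TPM in WT, Etfdh at 162 ± 3.53 TPM in GFP and 155 ± 10.8 TPM in WT, and the 2 SDs overlapped in both. Fgf21 was at 6.95 ± 1.04 TPM in GFP and 1.06 ± 0.497 TPM in WT. Over the same libraries the 9 hepatocyte markers had a median log2 fold change of -3.39, all 9 being called lower, and the part of hepatocyte content in the falls was not tested.

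**Figure D4:**
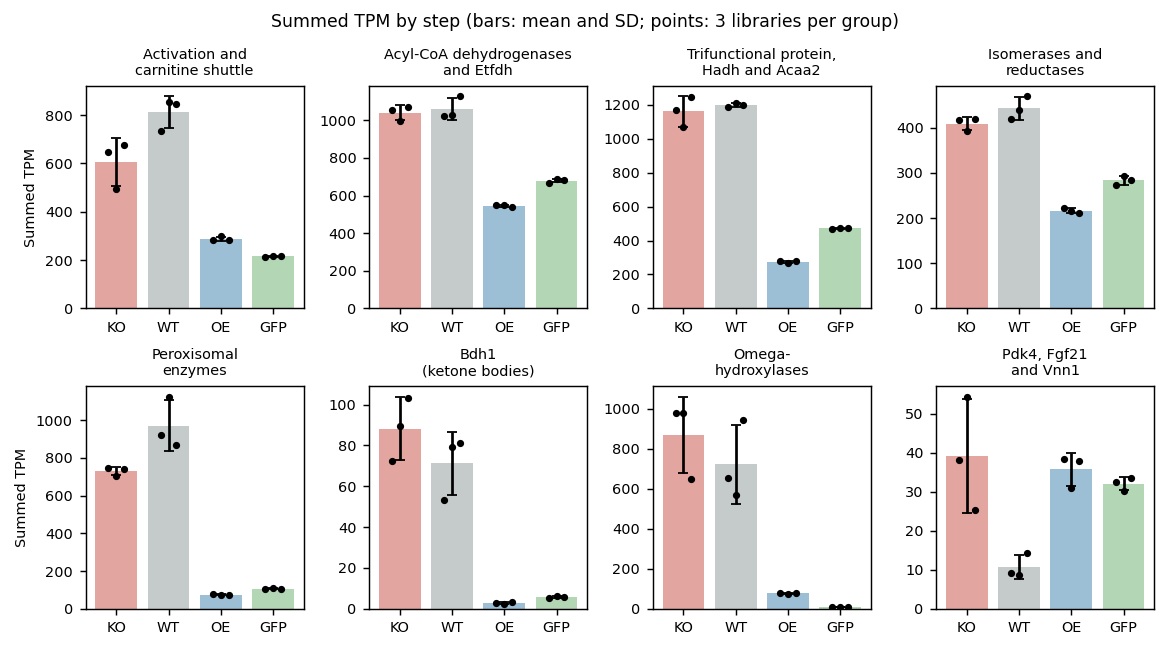
Summed TPM of the genes of each of 8 steps, as mean and SD with a point per library, in KO, WT, OE and GFP (3 libraries each). The omega-hydroxylases held 72.0 to 80.3 TPM in OE and 8.20 to 11.0 TPM in GFP, while activation and the carnitine shuttle was the other enzyme step with a higher sum in OE than in GFP.

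The RefSeq promoter table (GRCm38.p6, 250 bases before to 50 after each start) held 24 promoters for 22 of the 29 genes. Crat, Acaa2, Decr1, Cyp4a10, Cyp4a14, Cyp4a12a and Vnn1 had none there. The letters TTGCNNAA, a pattern bound by C/EBP factors, were searched on both strands and found in 2 of the 24 promoters (8.33%), against 10.8% of all 32851. The DR1 element, the direct repeat that PPARA binds with its partner, was in 0 of 24, against 0.381% of all, and CCAAT was in 10 of 24 (41.7%), against 37.4% of all. No motif overlapped another in the C/EBP-type matches. The 2 promoters with the C/EBP-type letters were those of Acads and Acaa1a, shown here with the match in capitals.
Acads: tactgcaaagTTGCCCAAgctgggcttg
Acaa1a: ctacaaaaggTTGTGCAAacttggaagt
The Acads stretch is chr5:115119524-115119551 (minus strand) with the match at -195 to -188 from the start, and the Acaa1a stretch is chr9:119341102-119341129 (plus strand) with the match at -182 to -175. Both genes fell in OE, Acads by 0.65 and Acaa1a by 0.53 on the log2 scale, and in KO their log2 fold changes were -0.020 ± 0.11 and 0.18 ± 0.15, neither called. A match is a description of these letters and not a measured binding site.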

How the data were processed

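Poly(A) RNA was made into stranded libraries. Per the labels, the authors used Trimmomatic 0.36, STAR 2.5.1, Picard 1.84, RSEM 1.2.22 and DESeq2 with mm10. The deposited tables hold RSEM expected counts, which are estimated and not scaled to depth, and TPM, which sums to 1000000 in each library. Expected counts were rounded, filtered with filterByExpr (minimum count 10, minimum total 15), scaled by TMM and tested with the quasi-likelihood F test of edgeR 4.0.16 in R 4.3.3, each comparison on its own 6 libraries and the difference of effects on all 12, adjusting by Benjamini-Hochberg across every gene tested. The code was tested on simulated data. Each SE of a log2 fold change was its absolute value divided by the square root of the F statistic. The 95% intervals used that SE and the t distribution, so both are approximate. Alternatives were DESeq2 1.42.0, other scalings and filters, limma 3.58.1 on log2(TPM + 1) or log2(TPM + 0.1) where mean TPM reached 1, 1 model of the 12 libraries together, blocking on replicate number, and omission of single libraries. The genes and lists were chosen with earlier results of these data known. Values per library are given for the members of each step with the lowest p in KO against WT or OE against GFP, and levels or fold changes for the 4 further pathway genes with the lowest p in each comparison, some of which are not reported here. Cpt1a, Cpt2, Acadl, Hadha, Cyp4a14 and Fgf21, and the Cyp4a copies, were added after their values were seen. Gene positions and coding identity came from GENCODE M21, in which all 29 versioned identifiers were found. A comparison of protein sequences was not run.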

Additional observations from a re-analysis of the deposited data

Results flagged for a closer look

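For 26 of the 29 genes the effect in OE against GFP differed from the effect in KO against WT by the test of the difference itself (edgeR's quasi-likelihood test, adjusted p under 0.05), beside 54.1% of the 15326 genes tested. The log2 difference between these effects, with that in KO against WT subtracted, was positive for Cyp4a14 (3.67), Cyp4a12a (3.26), Acsl1 (2.33), Cpt2 (0.73), Acadl (0.64) and Decr2 (0.44). It was negative for Fgf21 (-3.82), Hadh (-1.92), Bdh1 (-1.79), Etfdh (-1.78), Vnn1 (-1.71), Cpt1a (-1.67), Ehhadh (-1.44), Cyp4a10 (-1.30), Hadhb (-1.30), Acadm (-1.23), Hadha (-1.22), Eci1 (-1.09), Acaa1b (-1.03), Acadvl (-1.03), Slc25a20 (-1.02), Eci2 (-0.73), Acaa1a (-0.69), Acads (-0.61), Acad11 (-0.42) and Acaa2 (-0.33). None of the 29 was called in KO against WT, so the differences are not separate evidence of an effect of Cebpa loss on these genes. The fit also holds a single dispersion per gene and understates the spread in KO and WT. Adjusted p-values ran from 5.51e-08 (Etfdh) to 0.0236 (Acaa2). The call on Acaa2 was lost with library totals, without a filter, with the replicate block and without GFP library 2, the call on Acad11 with library totals and the call on Cyp4a10 with the replicate block. Fgf21 was not tested under the stricter filter. Crat was called higher with library totals, with the replicate block and without KO library 1, and Decr1 with library totals, with the stricter filter and without KO library 3.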

How the results depend on the processing

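With 3 libraries a group, edgeR's counts in KO against WT were unstable, and those in OE against GFP were not. Of 186 alternative counts, 162 were within 1.5 times the value given, and of 1790 alternative values of single genes 1716 kept direction and side of the threshold. In KO against WT, 203 genes were called, against 623 with DESeq2, 324 without a filter, 91 with the stricter filter (mean of 5 CPM, and 1 CPM in at least 3 libraries), 112 and 103 with limma on log2(TPM + 1) and log2(TPM + 0.1), 1205 in the fit of all 12 libraries, 87 with the replicate block, and 42 (without WT library 1) to 396 (without KO library 3) when a library was left out. The share of higher calls was 40.4%, against 28.6% with limma and 52.3% without KO library 3. Of the 29 genes, 1 was higher and 3 lower with DESeq2 and in the fit of all 12 libraries, 1 was higher without a filter, and 0 to 1 when a library was left out. In GFP against WT, 3 of the 29 were higher with library totals and with both limma fits, 0 with the stricter filter and 1 to 2 without single libraries.

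Reversals were confined to genes near 0 in KO against WT, and to Vnn1, Etfdh and Eci2 in GFP against WT and Pdk4 in the difference. In KO against WT, library totals gave Acadm -0.032, Etfdh -0.040 and Decr2 -0.0034 on the log2 scale, and Etfdh was -0.0036 without a filter, -0.038 and -0.038 with limma and -0.0062 in the fit of all 12 libraries. Leaving out single libraries gave Acadm -0.026 to 0.061, Acads -0.094 to 0.053, Acad11 -0.069 to 0.019, Etfdh -0.054 to 0.036, Eci1 -0.059 to 0.047, Cpt1a -0.25 to 0.012, Ehhadh -0.11 to 0.020 and Cyp4a12a -0.39 to 0.081. In GFP against WT, Vnn1 was 0.99 with library totals, 1.26 and 1.37 with limma and -0.56 to 0.24 without single libraries, Etfdh 0.065 and 0.065 and Eci2 0.0019 and 0.0020 with limma. Pdk4 in the difference was -1.09 to 0.060 without single libraries. The cause was not tested. Same-numbered libraries did not deviate together (correlations 0.026, -0.048 and -0.40 in KO and WT, -0.043, 0.044 and -0.072 in OE and GFP). With 3 libraries a group such values cannot settle whether the numbers pair them. The replicate block left the counts of the 29 genes as they were in each comparison of 2 groups. It gave 7 higher and 18 lower in the difference. With the stricter filter Acaa1b, Bdh1, Cyp4a10 and Fgf21 were not tested in OE against GFP. Few counts limited Fgf21, Pdk4 and, in OE and GFP, Cyp4a10 and Acaa1b.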
